A study of Mus musculus with 24 samples.

Results

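The Cyp2c genes encode a family of cytochrome P450 enzymes of the liver. The 7 mouse members described here are Cyp2c29, Cyp2c37, Cyp2c38, Cyp2c39, Cyp2c50, Cyp2c54 and Cyp2c55. They were listed by gene name with earlier results of these data known, and every probe set annotated to them was used. Each member had 1 probe set, and all 7 genes were among the 9167 tested, out of 12393 genes with a probe set of 1 symbol. Counts and medians of the 7 members set beside all genes describe this list and do not test the family. Expression was measured in livers of 24 mice with 1 Affymetrix array per mouse, and the values are RMA log2 expression values, on which a difference of 1 is a 2-fold difference. All mice were of mixed C57BL/6x129Sv background and labelled female. Ages were not stated in the labels.

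The mice belonged to 3 genotypes that differ in CAR, the constitutive androstane receptor, which is the product of Nr1i3. Human CAR mice lacked mouse CAR and carried the human receptor as a transgene with the promoter of mouse albumin, obtained by crossing transgenic mice to knockout mice over 2 breeding cycles. Knockout mice lacked mouse CAR (mCAR -/-), and wild-type mice had mouse CAR alone. Within each genotype mice received TCPOBOP, phenobarbital, CITCO or corn oil by intraperitoneal injection over 3 days, every 24 h. TCPOBOP, a ligand of mouse CAR that the mouse does not metabolise, was given once at 3 mg/kg and followed by corn oil. Phenobarbital, an anticonvulsant that per the labels sends either receptor to the nucleus, was given at 100 mg/kg per day, and CITCO, a ligand of human CAR, at 30 mg/kg per day. Livers were taken 6 h after the last injection. There were 12 groups of 2 mice, and so small a number limits precision throughout. An albumin promoter places the human receptor mainly in hepatocytes and outside the control of Nr1i3, and the array's Nr1i3 probes did not measure the human transgene.

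Cytochromes P450 of this family oxidise drugs and also fatty acids and retinoids made in the body. In the mouse, several of them turn arachidonic acid into epoxides or hydroxylated acids that act as local signals, which epoxide hydrolases then remove. CAR is a nuclear receptor that pairs with the retinoid X receptor and, once in the nucleus, switches on P450 genes at paired half-sites in their upstream DNA. Phenobarbital-type induction of Cyp2b and Cyp2c enzymes in liver is its best known effect. Among the members, mouse Cyp2c55 hydroxylates arachidonic acid and is also known from the intestine, mouse Cyp2c29, Cyp2c38, Cyp2c50 and Cyp2c54 are arachidonic acid epoxygenases, mouse Cyp2c37 hydroxylates arachidonic acid, and mouse Cyp2c39 also oxidises retinoic acid.

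The genes lie together on chromosome 19. In the RefSeq gene table the 14 protein-coding genes from Cyp2c55 to Cyp2c70 were all Cyp2c genes, with Cyp2c55 at one end, Cyp2c29, Cyp2c39 and Cyp2c38 next to each other, and Cyp2c37, Cyp2c54 and Cyp2c50 next to each other further along. Upstream windows of 250 bases, ending at the annotated start of the gene, were taken from RefSeq on build GRCm38.p6 for 6 of the 7 members. They are shown as a description of the upstream DNA, and a link between these windows and expression was not tested. Windows lay at chr19:39006769-39007018, plus strand for Cyp2c55, chr19:39286835-39287084, plus strand for Cyp2c29, chr19:39347096-39347345, plus strand for Cyp2c39, chr19:39463076-39463325, minus strand for Cyp2c38, chr19:39992174-39992423, plus strand for Cyp2c37 and chr19:40089429-40089678, plus strand for Cyp2c50. A second annotated start of Cyp2c39 gave another window at chr19:39510572-39510821, plus strand, which is not printed. This second window shared 71.8% of aligned bases with the printed Cyp2c39 window. It shared 54.5% with Cyp2c37 and 54.4% with Cyp2c50, and held AGTTCA and TGTTTAC but not AGGTCA. The Cyp2c38 window lies between both Cyp2c39 windows, and the Cyp2c39 window with the lower coordinates is the one printed. Which start of Cyp2c39 is used in liver was not tested. Capitals mark matches, on either strand, to AGGTCA and AGTTCA (nuclear receptor half-sites), TATAAA (the TATA box), TGTTTAC (a forkhead factor motif) and CAAAGTCCA (an HNF4 motif).
Cyp2c55: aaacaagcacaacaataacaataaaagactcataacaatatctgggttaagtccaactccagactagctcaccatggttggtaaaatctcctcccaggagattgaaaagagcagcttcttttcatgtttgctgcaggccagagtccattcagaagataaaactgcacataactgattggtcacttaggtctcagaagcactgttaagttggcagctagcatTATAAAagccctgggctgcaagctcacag
Cyp2c29: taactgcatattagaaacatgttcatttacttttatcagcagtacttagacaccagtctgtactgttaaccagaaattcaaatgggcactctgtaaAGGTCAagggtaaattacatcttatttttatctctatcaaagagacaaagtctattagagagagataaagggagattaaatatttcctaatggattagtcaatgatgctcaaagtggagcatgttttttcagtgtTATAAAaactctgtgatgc
Cyp2c39: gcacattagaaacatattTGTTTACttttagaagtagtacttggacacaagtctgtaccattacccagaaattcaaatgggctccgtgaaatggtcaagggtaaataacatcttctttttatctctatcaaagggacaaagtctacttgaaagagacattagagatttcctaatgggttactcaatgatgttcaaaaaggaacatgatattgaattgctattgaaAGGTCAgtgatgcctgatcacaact
Cyp2c38: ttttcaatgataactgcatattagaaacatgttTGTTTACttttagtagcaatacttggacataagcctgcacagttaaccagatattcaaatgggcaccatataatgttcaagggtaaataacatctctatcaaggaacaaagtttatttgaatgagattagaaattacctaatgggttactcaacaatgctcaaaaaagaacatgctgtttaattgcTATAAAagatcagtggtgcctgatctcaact
Cyp2c37: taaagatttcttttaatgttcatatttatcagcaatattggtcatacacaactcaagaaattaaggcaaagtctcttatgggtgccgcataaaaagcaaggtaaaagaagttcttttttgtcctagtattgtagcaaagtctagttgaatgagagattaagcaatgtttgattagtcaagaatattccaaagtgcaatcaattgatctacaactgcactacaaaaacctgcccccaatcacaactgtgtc
Cyp2c50: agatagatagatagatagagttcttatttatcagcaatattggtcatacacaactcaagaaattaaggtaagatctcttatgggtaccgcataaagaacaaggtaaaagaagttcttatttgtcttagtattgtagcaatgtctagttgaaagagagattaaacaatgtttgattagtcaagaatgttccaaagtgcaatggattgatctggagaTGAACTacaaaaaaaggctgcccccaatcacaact

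The printed windows of Cyp2c37 and Cyp2c50 shared 84.3% of aligned bases, and those of Cyp2c29, Cyp2c38 and Cyp2c39 shared 68.8% to 75.8%. Between these 2 sets the identity was 57.5% to 60.3%, and the Cyp2c55 window shared 51.7% to 55.3% with any of the printed others. AGGTCA stood at -154 in Cyp2c29 and at -25 in Cyp2c39, counted back from the start, and 14% of all 32851 windows of this length held it. The reverse complement of AGTTCA stood at -35 in Cyp2c50, against a share of 11.8% of all windows for that motif. TATAAA stood at -29 in Cyp2c55, -19 in Cyp2c29 and -31 in Cyp2c38 (12.4% of all windows), and TGTTTAC at -232 in Cyp2c39 and -217 in Cyp2c38 (3.17% of all windows). CAAAGTCCA was in 0 of the 7 windows and in 0.384% of all windows, and the Cyp2c37 window held 0 of the letters searched for. The motifs do not overlap each other in these windows, and a match is a run of letters, not a measured site of binding.

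Of the 24 arrays, 2 stood apart over all genes, both of the phenobarbital groups. The human CAR array had a median correlation to the rest of 0.970 and the knockout array 0.980, against 0.981 to 0.991 for the other 22. Nr1i3, the deleted gene, lay between 5.03 and 5.60 on the 16 human CAR and knockout arrays, against 6.84 or more on the 8 wild-type arrays. Cyp2b10, the standard marker of CAR activity, had 8.22 and 8.82 in human CAR mice on corn oil and 5.42 and 4.81 in knockout, against 4.66 and 5.22 in wild type, where it reached 12.24 and 12.48 on TCPOBOP. Of 7 hepatocyte markers 6 were on the array, and they averaged above 12 in every group, while 2 of 4 cholangiocyte and 2 of 5 intestinal markers lay below the dim limit on all arrays. The dim limit, the 40th percentile of an array, was 4.93 to 5.08. On the labelled sex, the 3 Xist probe sets lay between 2.86 and 5.51 and 6 probe sets of Y-linked genes between 2.63 and 5.30, so neither settled it. The male-biased liver genes Cyp4a12a, Cyp7b1, Slco1a1 and Elovl3 were above the dim limit on all 24 arrays. Their medians were 10.4, 10.0, 9.08 and 8.52, and Hsd3b5 was above the limit on 21 arrays. The labelled sex was not tested further. Because the samples are whole liver, fewer cells of a type and less RNA per cell cannot be told apart.

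**Figure D1:**
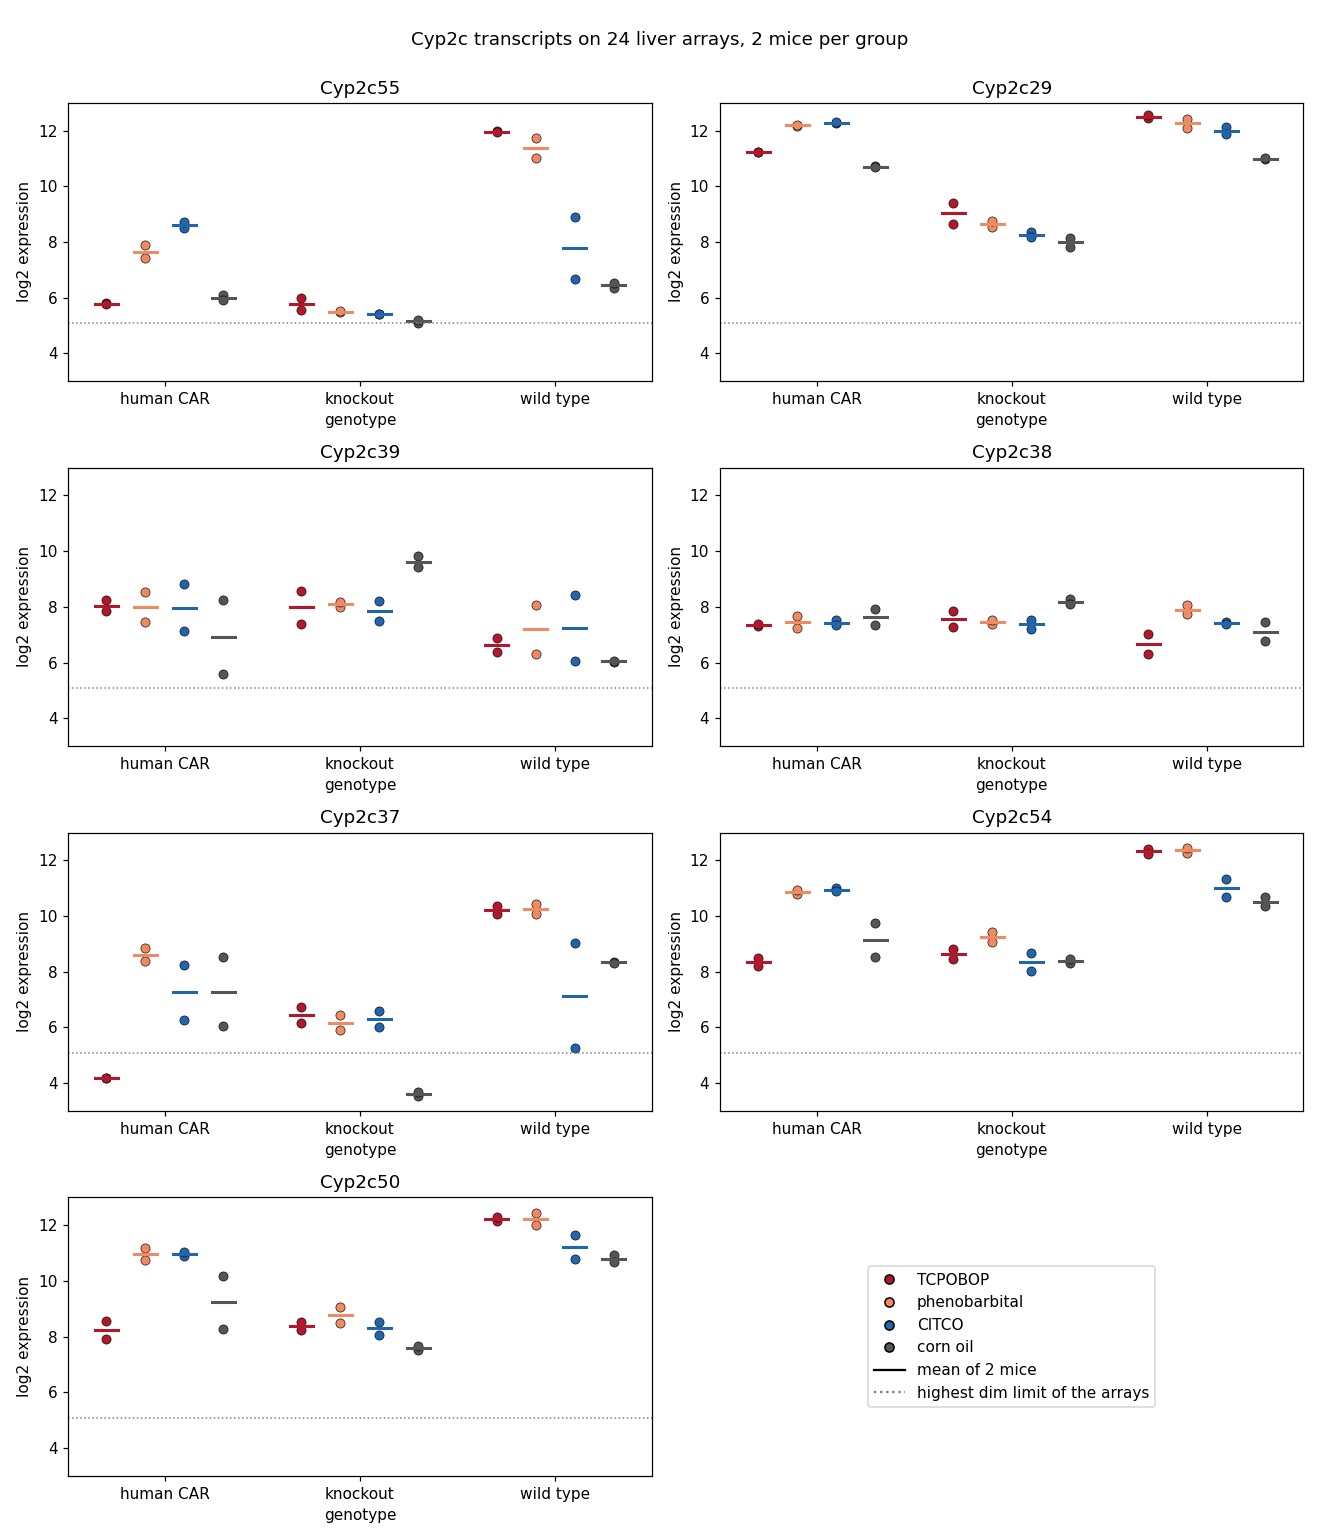
Log2 expression (y axis) of each Cyp2c gene on all 24 arrays, by genotype (x axis) and treatment (colour), with points for mice, bars for the mean of 2 mice and a dotted line at the highest dim limit. Cyp2c29 lay between 7.83 and 9.41 on the 8 knockout arrays, below every human CAR and wild-type array, while Cyp2c55 reached 11.98 in wild-type mice on TCPOBOP.

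The genotypes were first compared on corn oil, which asks how far basal Cyp2c expression went with CAR. In knockout livers Cyp2c29, Cyp2c37, Cyp2c50 and Cyp2c54 fell relative to wild type, and the other 3 members did not pass the test. In human CAR livers only Cyp2c29 rose relative to knockout. None of the 7 passed between human CAR and wild type. The test was limma's moderated test with Benjamini-Hochberg adjustment over all genes of a comparison, at an adjusted p under 0.05.

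Cyp2c29, an arachidonic acid epoxygenase, had values of 10.74 and 10.67 in human CAR mice and 8.13 and 7.83 in knockout mice, against 10.97 and 11.02 in wild-type mice. Both knockout mice were far below the other 4, and the 3 genotypes did not overlap. Knockout minus wild type was -3.02 (SE 0.185, adjusted p = 1.52e-07), which puts knockout livers at 0.124 of the wild-type level. Human CAR livers were 6.62-fold above knockout (2.73 on the log2 scale, SE 0.185, adjusted p = 7.09e-07). The difference of human CAR from wild type was -0.29 (95% interval -0.68 to 0.10, adjusted p = 0.784). Over the other 6 members it ran from -1.58 for Cyp2c50 to 0.87 for Cyp2c39 (adjusted p from 0.178 to 0.858). Both called differences kept an adjusted p under 0.05 when any 1 of their 4 arrays was left out, with the knockout difference between -3.17 and -2.87.

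Cyp2c50 and Cyp2c54, neighbouring epoxygenase genes, were also low without CAR. Cyp2c50 had 8.28 and 10.18 in human CAR mice and 7.53 and 7.68 in knockout mice, against 10.94 and 10.67 in wild-type mice. Cyp2c54 had 8.53 and 9.77 in human CAR mice and 8.32 and 8.47 in knockout mice, against 10.68 and 10.36 in wild-type mice. For both genes every knockout value lay below every wild-type value, and the 2 human CAR mice were spread between the other genotypes. Knockout minus wild type was -3.20 for Cyp2c50 (SE 0.432, adjusted p = 0.0024) and -2.13 for Cyp2c54 (SE 0.312, adjusted p = 0.00425). Leaving out replicate 1 of wild type gave adjusted p = 0.0526 and 0.125 for Cyp2c50 and Cyp2c54, and leaving out replicate 1 of knockout gave 0.0685 and 0.0861. Human CAR minus knockout was 1.62 for Cyp2c50 (adjusted p = 0.295) and 0.76 for Cyp2c54 (adjusted p = 0.638). Without replicate 1 of human CAR, the mouse with the lower values, Cyp2c50 passed that comparison at 2.57 (adjusted p = 0.00455). Without replicate 2 of human CAR, human CAR minus wild type passed for Cyp2c50 at -2.53 and for Cyp2c54 as well (adjusted p = 0.0055 for each).

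Cyp2c37, a hydroxylase of arachidonic acid, had 6.06 and 8.51 in human CAR mice and 3.53 and 3.69 in knockout mice, against 8.36 and 8.31 in wild-type mice. The knockout values were both below the dim limit, and the human CAR mice lay far from each other. With each dim array set at its dim limit, Cyp2c37 was at least 10.4-fold lower in knockout than in wild type (adjusted p = 0.0346 in limma, from the values as deposited). The call no longer passed when any 1 of the 4 arrays was left out (adjusted p from 0.176 to 0.388). Cyp2c37 was below the dim limit on 4 of 24 arrays, these 2 and both arrays of human CAR mice on TCPOBOP.

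Cyp2c39, the retinoic acid oxidising member, and Cyp2c38 stood the other way round. Cyp2c39 had 8.23 and 5.60 in human CAR mice and 9.82 and 9.42 in knockout mice, against 6.02 and 6.07 in wild-type mice. Cyp2c38 had 7.93 and 7.36 in human CAR mice and 8.27 and 8.11 in knockout mice, against 6.76 and 7.44 in wild-type mice. Knockout mice were the highest for both genes and did not overlap wild type. The differences of knockout from wild type, 3.58 for Cyp2c39 (95% interval 1.82 to 5.33, adjusted p = 0.153) and 1.09 for Cyp2c38 (95% interval 0.53 to 1.65, adjusted p = 0.213), did not pass. Cyp2c55 had 6.08 and 5.91 in human CAR mice and 5.10 and 5.21 in knockout mice, against 6.36 and 6.54 in wild-type mice. Human CAR minus knockout was -2.71 for Cyp2c39, -0.54 for Cyp2c38 and 0.84 for Cyp2c55 (adjusted p from 0.434 to 0.816). For Cyp2c37 the human CAR mean was at least 5.02-fold above knockout, and did not pass in limma (adjusted p = 0.198). The 2 human CAR mice lay 2.45 apart, so this bound does not hold for each mouse. The knockout values of Cyp2c55 lay just above the dim limit, and its difference from wild type was -1.29 (95% interval -2.22 to -0.36, adjusted p = 0.509). In a limma fit of the 4 knockout and wild-type arrays alone, Cyp2c39 and Cyp2c55 passed (adjusted p = 8.92e-05 and 0.00406), as did 0.513% of all genes. That fit estimates the spread from these 4 arrays. Their SDs in wild type and knockout were 0.03 and 0.28 for Cyp2c39 and 0.13 and 0.08 for Cyp2c55. Over all 12 groups the pooled SDs were larger, at 0.964 and 0.504.

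Among all 9167 genes 0.229% passed between knockout and wild type, 0.12% between human CAR and knockout and 0.0545% between human CAR and wild type. The median difference of the 7 members was -2.13 for knockout minus wild type, against 0.00 over all genes. In that comparison all 7 members had values that did not overlap, as did 41.8% of all genes. Between human CAR and wild type 0 of 7 members passed in limma, and 2 of 7 had an unadjusted p under 0.05, against 7.73% of all genes. The averages of macrophage and stellate cell markers were higher in knockout than in wild type. The 7 Kupffer cell markers averaged 8.17 to 8.31 in knockout mice on corn oil, against 7.59 to 8.09 in wild type, and Marco, a scavenger receptor of Kupffer cells, was 1.73 higher (adjusted p = 0.00327). The 6 stellate cell markers, 1 of them dim on all arrays, averaged 6.31 to 6.70 in knockout and 6.03 to 6.06 in wild type. The hepatocyte markers averaged 12.46 to 12.60 in knockout and 12.36 to 12.65 in wild type. The part of these cells in the result was not tested.

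The 2 knockout mice on corn oil also differed from the 6 knockout mice given TCPOBOP, phenobarbital or CITCO. Cyp2c37 lay at 5.90 to 6.72 in these 6 mice against 3.53 and 3.69 on corn oil. Cyp2c39 lay at 7.39 to 8.57 against 9.82 and 9.42, and Cyp2c38 at 7.21 to 7.87 against 8.27 and 8.11. The corn oil mice stood outside the range of the 6 treated mice for Cyp2c29, Cyp2c50 and Cyp2c55 too, below it in each case, but not for Cyp2c54. The share of all genes that did so was not counted. Against each treated knockout group alone, 51.8% to 55% of all genes did not overlap corn oil. Standing outside the range of 6 mice is a stricter condition, so these shares are not a like background for it. When the mean of the corn oil, TCPOBOP and CITCO knockout groups replaced the corn oil group, a setting added after these values were seen, Cyp2c29 differed from wild type on corn oil by -2.57 (adjusted p = 7.63e-08). Cyp2c50 then differed by -2.71 (adjusted p = 0.00152) and Cyp2c54 by -2.06 (adjusted p = 0.00101), while the call of Cyp2c37 was lost (adjusted p = 0.166).

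**Figure D2:**
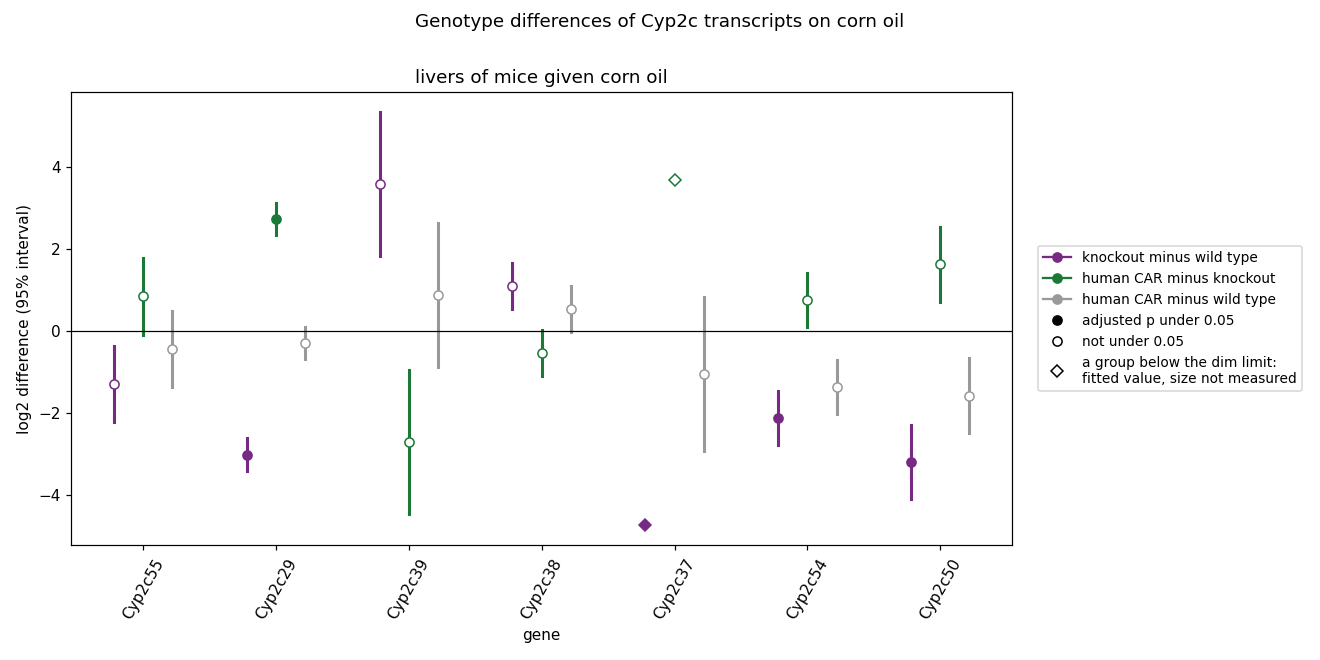
Differences between genotypes on corn oil (log2, y axis) for each Cyp2c gene (x axis), as limma estimates with 95% intervals and filled points where the adjusted p was under 0.05; diamonds rest on a group below the dim limit, and their size is not measured. Cyp2c29 was 3.02 lower in knockout than in wild type and 2.73 higher in human CAR than in knockout.

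In wild-type mice Cyp2c55, Cyp2c29 and Cyp2c54 rose on TCPOBOP and on phenobarbital, Cyp2c55 by far the most. CITCO gave 0 passing members in wild type. TCPOBOP and phenobarbital passed 6.14% and 1.47% of all genes in wild type, and CITCO 0.0327%. All ligand comparisons within a genotype used the same 2 corn oil mice.

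Cyp2c55, the arachidonic acid hydroxylase, had 11.98 and 11.94 on TCPOBOP, 11.01 and 11.74 on phenobarbital and 6.66 and 8.90 on CITCO, against 6.36 and 6.54 on corn oil. All 4 mice on TCPOBOP or phenobarbital were far above corn oil, while the CITCO mice were split, 1 near corn oil and 1 well above it. Cyp2c55 rose 45.6-fold on TCPOBOP (5.51, SE 0.438, adjusted p = 5.81e-07) and 30.5-fold on phenobarbital (4.93, SE 0.438, adjusted p = 1.13e-05). Its CITCO difference was 1.33 (95% interval 0.41 to 2.26, adjusted p = 0.572), and without replicate 1 of the CITCO mice it was 2.45 (adjusted p = 0.000235).

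Cyp2c29 had 12.44 and 12.56 on TCPOBOP, 12.11 and 12.40 on phenobarbital and 12.11 and 11.87 on CITCO, against 10.97 and 11.02 on corn oil. Every treated mouse was above both corn oil mice. The differences were 1.50 for TCPOBOP (SE 0.185, adjusted p = 7.43e-05), 1.26 for phenobarbital (SE 0.185, adjusted p = 0.00166) and 1.00 for CITCO (95% interval 0.61 to 1.39, adjusted p = 0.129). Without replicate 2 of the phenobarbital mice, the phenobarbital difference of Cyp2c29 was 1.11 and no longer passed (adjusted p = 0.0624).

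Cyp2c54 had 12.42 and 12.23 on TCPOBOP, 12.25 and 12.46 on phenobarbital and 10.67 and 11.35 on CITCO, against 10.68 and 10.36 on corn oil. Mice on TCPOBOP or phenobarbital lay above the others, and CITCO overlapped corn oil. Cyp2c54 rose by 1.80 on TCPOBOP (SE 0.312, adjusted p = 0.00182) and by 1.83 on phenobarbital (SE 0.312, adjusted p = 0.00609). The phenobarbital call of Cyp2c54 was lost without replicate 2 of phenobarbital (adjusted p = 0.122) or replicate 2 of corn oil (adjusted p = 0.0915).

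Cyp2c50 and Cyp2c37 had higher values with TCPOBOP and phenobarbital too, but did not pass. Cyp2c50 had 12.17 and 12.29 on TCPOBOP, 12.02 and 12.44 on phenobarbital and 10.78 and 11.65 on CITCO, against 10.94 and 10.67 on corn oil. Cyp2c37 had 10.06 and 10.38 on TCPOBOP, 10.09 and 10.43 on phenobarbital and 5.25 and 9.03 on CITCO, against 8.36 and 8.31 on corn oil. For both genes the TCPOBOP and phenobarbital mice lay above corn oil with no overlap, and the CITCO mice overlapped corn oil. Cyp2c50 differed from corn oil by 1.42 with either compound (adjusted p = 0.0637 for TCPOBOP and 0.139 for phenobarbital). Cyp2c37 differed by 1.88 (adjusted p = 0.248) and 1.92 (adjusted p = 0.352), with an SE of 0.89. In a limma fit of the 4 arrays of each comparison alone, both genes passed with both compounds (adjusted p = 0.000371 and 0.00434 for Cyp2c50, 8.91e-05 and 0.000472 for Cyp2c37). Those fits estimate the spread from 4 arrays. The SD within these groups was at most 0.30 for Cyp2c50 and 0.24 for Cyp2c37. Over all 12 groups the pooled SDs were 0.496 and 1.03.

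For Cyp2c38 and Cyp2c39 no ligand gave a passing difference from corn oil in wild type. Cyp2c38 had 7.04 and 6.32 on TCPOBOP, 8.07 and 7.73 on phenobarbital and 7.46 and 7.39 on CITCO, against 6.76 and 7.44 on corn oil. Cyp2c39 had 6.88 and 6.36 on TCPOBOP, 8.08 and 6.30 on phenobarbital and 8.42 and 6.04 on CITCO, against 6.02 and 6.07 on corn oil. In the phenobarbital and CITCO groups 1 mouse of 2 was high for Cyp2c39 and the other close to corn oil. Their differences from corn oil ran from -0.42 to 1.19. TCPOBOP set against phenobarbital gave 1 passing member, Cyp2c38 at -1.22 (SE 0.266, adjusted p = 0.03), where 1.28% of all genes passed. That call was lost without either phenobarbital mouse or replicate 2 of TCPOBOP (adjusted p from 0.0775 to 0.4), and the other 6 differences between TCPOBOP and phenobarbital ran from -0.57 for Cyp2c39 to 0.58 for Cyp2c55.

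Over the 7 members the median difference in wild type was 1.50 on TCPOBOP, 1.42 on phenobarbital and 0.49 on CITCO, against 0.01, 0.00 and -0.01 over all genes. On TCPOBOP 6 members, and on phenobarbital 7, did not overlap corn oil, as did 54.2% and 52.1% of all genes. On CITCO 2 members did not overlap, against 45.6% of all genes, and 2 of 7 had an unadjusted p under 0.05 in limma, against 7.28%.

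In knockout mice 1 member passed with 1 compound. Cyp2c29 rose on TCPOBOP by 1.05 (SE 0.185, adjusted p = 0.0449), where 0.0764% of all genes passed. Phenobarbital and CITCO gave 0 passing members each, with 0.731% and 0.0327% of all genes passing. In limma 5 of 7 members had an unadjusted p under 0.05 on phenobarbital and 3 of 7 on CITCO, against 21.3% and 9.4% of all genes.

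Cyp2c29 had 8.64 and 9.41 on TCPOBOP, 8.53 and 8.76 on phenobarbital and 8.35 and 8.16 on CITCO, against 8.13 and 7.83 on corn oil. Each treated mouse was above both corn oil mice, with 1 TCPOBOP mouse well above the rest. The call on TCPOBOP was lost without that mouse, replicate 2 (0.66, adjusted p = 0.454), and without replicate 1 (1.20, adjusted p = 0.128) or replicate 2 (0.90, adjusted p = 0.354) of corn oil. Cyp2c29 differed from corn oil by 0.67 on phenobarbital (adjusted p = 0.0859), and by 0.78 without replicate 1 of the phenobarbital mice (adjusted p = 0.041).

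Cyp2c55 stayed low in knockout mice, with 5.54 and 5.98 on TCPOBOP, 5.48 and 5.51 on phenobarbital and 5.40 and 5.43 on CITCO, against 5.10 and 5.21 on corn oil. All 8 values lay close above the dim limit, and the differences were 0.60, 0.34 and 0.26 for the 3 compounds, with a smallest adjusted p of 0.596. Cyp2c54 had 8.83 and 8.47 on TCPOBOP, 9.44 and 9.06 on phenobarbital and 8.68 and 8.04 on CITCO, against 8.32 and 8.47 on corn oil. Cyp2c50 had 8.25 and 8.53 on TCPOBOP, 9.06 and 8.48 on phenobarbital and 8.54 and 8.07 on CITCO, against 7.53 and 7.68 on corn oil. Both phenobarbital mice were the highest for Cyp2c54, while for Cyp2c50 1 of them was highest and the other lay within the range of the TCPOBOP and CITCO mice. The differences on phenobarbital, 0.86 for Cyp2c54 and 1.16 for Cyp2c50, had adjusted p of 0.147 and 0.154.

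Cyp2c37 had 6.72 and 6.17 on TCPOBOP, 6.45 and 5.90 on phenobarbital and 6.58 and 6.03 on CITCO, against 3.53 and 3.69 on corn oil. Cyp2c39 had 8.57 and 7.39 on TCPOBOP, 8.01 and 8.16 on phenobarbital and 8.22 and 7.48 on CITCO, against 9.82 and 9.42 on corn oil. Cyp2c38 had 7.87 and 7.28 on TCPOBOP, 7.37 and 7.53 on phenobarbital and 7.53 and 7.21 on CITCO, against 8.27 and 8.11 on corn oil. The corn oil mice were the lowest for Cyp2c37 and the highest for Cyp2c39 and Cyp2c38, with all compounds alike on the other side. The differences ran from -1.77 to -1.54 for Cyp2c39 and from -0.82 to -0.62 for Cyp2c38. For Cyp2c37 the corn oil mice lay below the dim limit. On group means, TCPOBOP was at least 2.80-fold, phenobarbital at least 2.32-fold and CITCO at least 2.54-fold above corn oil. None of these 9 passed (adjusted p from 0.132 to 0.527). On TCPOBOP and phenobarbital all 7 members, and on CITCO 6, did not overlap corn oil, against 55%, 51.8% and 52.7% of all genes. In knockout mice the 7 Kupffer cell markers averaged 7.01 to 7.54 on TCPOBOP, 6.66 to 7.42 on phenobarbital and 7.34 to 7.53 on CITCO. On corn oil they averaged 8.17 to 8.31. Marco differed from corn oil by -1.47 on TCPOBOP (adjusted p = 0.0449) and by -1.57 on phenobarbital (adjusted p = 0.0144) in limma. The part of these markers in the values was not tested.

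In human CAR mice CITCO raised Cyp2c29, Cyp2c54 and Cyp2c55, phenobarbital raised Cyp2c29 and Cyp2c54, and TCPOBOP gave 0 passing members. CITCO passed 0.0873% of all genes, phenobarbital 0.665% and TCPOBOP 0%. On TCPOBOP 4 of 7 members had an unadjusted p under 0.05 in limma, 3 of them below corn oil, against 6.65% of all genes.

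Cyp2c29 had 11.24 and 11.22 on TCPOBOP, 12.16 and 12.22 on phenobarbital and 12.26 and 12.30 on CITCO, against 10.74 and 10.67 on corn oil. The 2 mice of each group were close together, and every treated mouse was above corn oil. Cyp2c29 rose by 1.57 on CITCO (SE 0.185, adjusted p = 0.002) and by 1.48 on phenobarbital (SE 0.185, adjusted p = 0.00458), and differed by 0.53 on TCPOBOP (95% interval 0.13 to 0.92, adjusted p = 0.656). The CITCO call of Cyp2c29 held without any 1 of the 4 arrays. The phenobarbital call was lost without replicate 1 of phenobarbital (adjusted p = 0.0653), which is the human CAR array that stood apart, or replicate 1 of corn oil (adjusted p = 0.0885), and in a fit without both arrays that stood apart it held (adjusted p = 0.0338).

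Cyp2c55 had 5.80 and 5.75 on TCPOBOP, 7.41 and 7.90 on phenobarbital and 8.50 and 8.70 on CITCO, against 6.08 and 5.91 on corn oil. CITCO mice were the highest, then phenobarbital, and TCPOBOP mice lay just below corn oil. Cyp2c55 rose 6.08-fold on CITCO (2.60, SE 0.438, adjusted p = 0.0292) and differed by 1.66 on phenobarbital (95% interval 0.73 to 2.59, adjusted p = 0.0697) and by -0.22 on TCPOBOP. The CITCO call of Cyp2c55 was lost whichever of its 4 arrays was left out, with differences of 2.50 to 2.71 and adjusted p of 0.0877 to 0.294.

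Cyp2c54 had 8.19 and 8.50 on TCPOBOP, 10.78 and 10.93 on phenobarbital and 11.00 and 10.89 on CITCO, against 8.53 and 9.77 on corn oil. Cyp2c50 had 7.92 and 8.56 on TCPOBOP, 10.74 and 11.18 on phenobarbital and 10.90 and 11.03 on CITCO, against 8.28 and 10.18 on corn oil. Phenobarbital and CITCO mice lay above both corn oil mice for both genes, and the corn oil mice were more than 1 unit apart. Cyp2c54 rose by 1.80 on CITCO (SE 0.312, adjusted p = 0.0317) and by 1.71 on phenobarbital (SE 0.312, adjusted p = 0.0261). Cyp2c50 differed by 1.74 on CITCO (adjusted p = 0.27) and by 1.73 on phenobarbital (adjusted p = 0.0607). The outcome for both genes turned on the corn oil mice. Without replicate 1 of corn oil, Cyp2c54 differed by 1.18 on CITCO (adjusted p = 0.634) and 1.09 on phenobarbital (adjusted p = 0.234). Without replicate 2 of corn oil, Cyp2c50 passed at 2.68 on both compounds (adjusted p = 0.00469 on CITCO and 0.00362 on phenobarbital). The CITCO call of Cyp2c54 was lost without either CITCO mouse too (adjusted p = 0.148 and 0.125), and its phenobarbital call without replicate 1 of phenobarbital (adjusted p = 0.248).

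Cyp2c37 had 4.20 and 4.17 on TCPOBOP, 8.38 and 8.84 on phenobarbital and 6.27 and 8.26 on CITCO, against 6.06 and 8.51 on corn oil. Both TCPOBOP mice were below the dim limit, and the other groups overlapped except phenobarbital with CITCO. On group means, Cyp2c37 was at least 4.79-fold lower on TCPOBOP than on corn oil, and did not pass in limma (adjusted p = 0.551). The 2 corn oil mice lay 2.45 apart, so this bound does not hold for each mouse. Cyp2c39 had 7.84 and 8.25 on TCPOBOP, 7.44 and 8.53 on phenobarbital and 8.81 and 7.13 on CITCO, against 8.23 and 5.60 on corn oil. Cyp2c38 had 7.32 and 7.39 on TCPOBOP, 7.25 and 7.66 on phenobarbital and 7.53 and 7.34 on CITCO, against 7.93 and 7.36 on corn oil. The spread between mice of a group covered most of the differences for Cyp2c39 and Cyp2c38, and their differences ran from 1.06 to 1.13 and from -0.29 to -0.19.

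The median difference of the 7 members in human CAR mice was -0.29 on TCPOBOP, 1.48 on phenobarbital and 1.57 on CITCO, against 0.01, -0.01 and 0.00 over all genes. With each compound 4 members did not overlap corn oil, and the shares of all genes were 38.3%, 48.6% and 29.3%. The 3 neutrophil markers averaged 5.81 and 8.44 in the 2 human CAR mice on phenobarbital, against 5.65 and 6.59 on corn oil, and their part in the phenobarbital values was not tested.

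**Figure D3:**
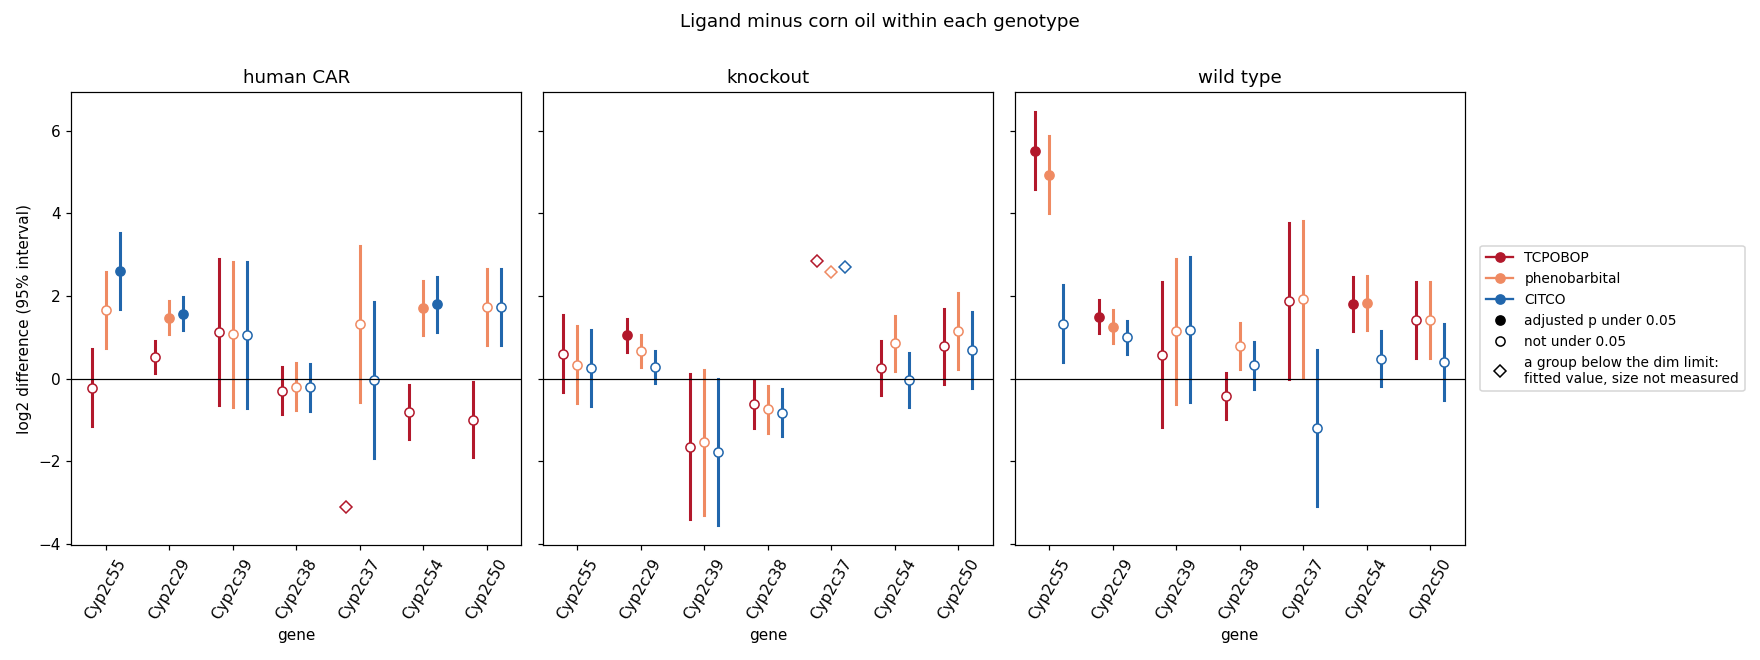
Ligand minus corn oil (log2, y axis) for each Cyp2c gene (x axis) in human CAR, knockout and wild-type mice, as limma estimates with 95% intervals and filled points where the adjusted p was under 0.05; diamonds rest on a group below the dim limit, and their size is not measured. Cyp2c55 stands at 5.51 on TCPOBOP and 4.93 on phenobarbital in wild type, and at 2.60 on CITCO in human CAR mice.

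Whether a ligand acted differently between genotypes was tested as the difference of its effects, an interaction contrast in the same limma fit. Cyp2c55 was the 1 member that passed, in 4 of these comparisons. Its TCPOBOP effect in knockout minus that in wild type was -4.91 (SE 0.62, adjusted p = 0.000231), and its phenobarbital effect in knockout minus that in wild type was -4.59 (SE 0.62, adjusted p = 0.00403). In these comparisons 1.95% and 0.153% of all genes passed. Both calls of Cyp2c55 held without any 1 of their 8 arrays.

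The mouse and the human receptor were set against each other on Cyp2c55 with phenobarbital and with the ligand of each. The phenobarbital effect in human CAR mice minus that in wild type was -3.27 (SE 0.62, adjusted p = 0.0461), where 0.164% of all genes passed. The CITCO effect in human CAR mice minus the TCPOBOP effect in wild type was -2.91 (SE 0.62, adjusted p = 0.0256), where 1.95% of all genes passed. The compounds and doses of the second comparison differ. In both comparisons the promoter of the receptor differed too, and the amount of human CAR was not measured. Cyp2b10 was also already higher in human CAR mice than in wild type on corn oil. The kind of receptor and these other differences cannot be told apart. Each of these calls of Cyp2c55 held in 1 of 8 fits that left out an array, with differences of -3.64 to -2.91 for phenobarbital and -3.01 to -2.80 for the other. The phenobarbital call held without replicate 2 of human CAR on phenobarbital, which left the human CAR array that stood apart. Without the 2 arrays that stood apart the phenobarbital difference was -3.03 (adjusted p = 0.14). For Cyp2c29 and Cyp2c54 the effects of phenobarbital in human CAR and wild-type mice differed by 0.22 (95% interval -0.34 to 0.77) and -0.13 (95% interval -1.06 to 0.81). Their CITCO effects in human CAR mice differed from the TCPOBOP effects in wild type by 0.07 (95% interval -0.48 to 0.63) and -0.01 (95% interval -0.94 to 0.93). For Cyp2c50 both of these differences were 0.31, with intervals from -0.98 to 1.61. For Cyp2c37, Cyp2c38 and Cyp2c39 the phenobarbital differences were -0.60, -0.99 and -0.08, and the others -1.91, 0.21 and 0.48, with adjusted p of 0.372 or more.

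For Cyp2c54 the TCPOBOP effect in knockout minus that in wild type was -1.54 and did not pass (95% interval -2.48 to -0.61, adjusted p = 0.0942). For Cyp2c29 the same difference was -0.46 (95% interval -1.01 to 0.10, adjusted p = 0.56), and for phenobarbital it was -0.59 (95% interval -1.15 to -0.04, adjusted p = 0.503). For Cyp2c50 the differences were -0.64 on TCPOBOP and -0.26 on phenobarbital, with adjusted p of 0.789 and 0.923. For Cyp2c38 they were -0.20 and -1.54, and for Cyp2c39 -2.22 and -2.68 (adjusted p from 0.152 to 0.92). For Cyp2c37, below the dim limit in knockout on corn oil, no size is given. On CITCO, knockout minus wild type gave 0 passing members (0.0218% of all genes passed, and 4 of 7 members had an unadjusted p under 0.05, against 5.64% of all genes), with Cyp2c55 at -1.08. Without replicate 1 of wild type on CITCO, the mouse near corn oil, Cyp2c55 passed at -2.19 (adjusted p = 0.024).

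Between human CAR and knockout mice 0 members passed for any ligand, where 0% of all genes passed for TCPOBOP, 0.0109% for phenobarbital and 0.0327% for CITCO. At an unadjusted p under 0.05 in limma there were 4, 3 and 5 of 7 members, against 5.03%, 7.9% and 6.79% of all genes. The CITCO effect in human CAR mice minus that in knockout was 1.30 for Cyp2c29 (95% interval 0.74 to 1.85, adjusted p = 0.127). It was 1.83 for Cyp2c54 (95% interval 0.89 to 2.76, adjusted p = 0.317) and 2.35 for Cyp2c55 (95% interval 1.03 to 3.66, adjusted p = 0.355). Cyp2c54 passed at 2.45 without replicate 2 of human CAR on corn oil (adjusted p = 0.0112), the mouse with the higher value. For Cyp2c37 these differences rest on knockout mice on corn oil, and on TCPOBOP also on human CAR mice given TCPOBOP, all below the dim limit, so no size is given (adjusted p from 0.348 to 0.883). The phenobarbital effect in human CAR mice minus that in knockout ran from 0.55 for Cyp2c38 to 2.61 for Cyp2c39 over the other 6 members (adjusted p from 0.36 to 0.894). For Cyp2c38 and Cyp2c39 the TCPOBOP differences were 0.33 and 2.77 and the CITCO differences 0.61 and 2.83, with adjusted p of 0.638 or more.

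**Figure D4:**
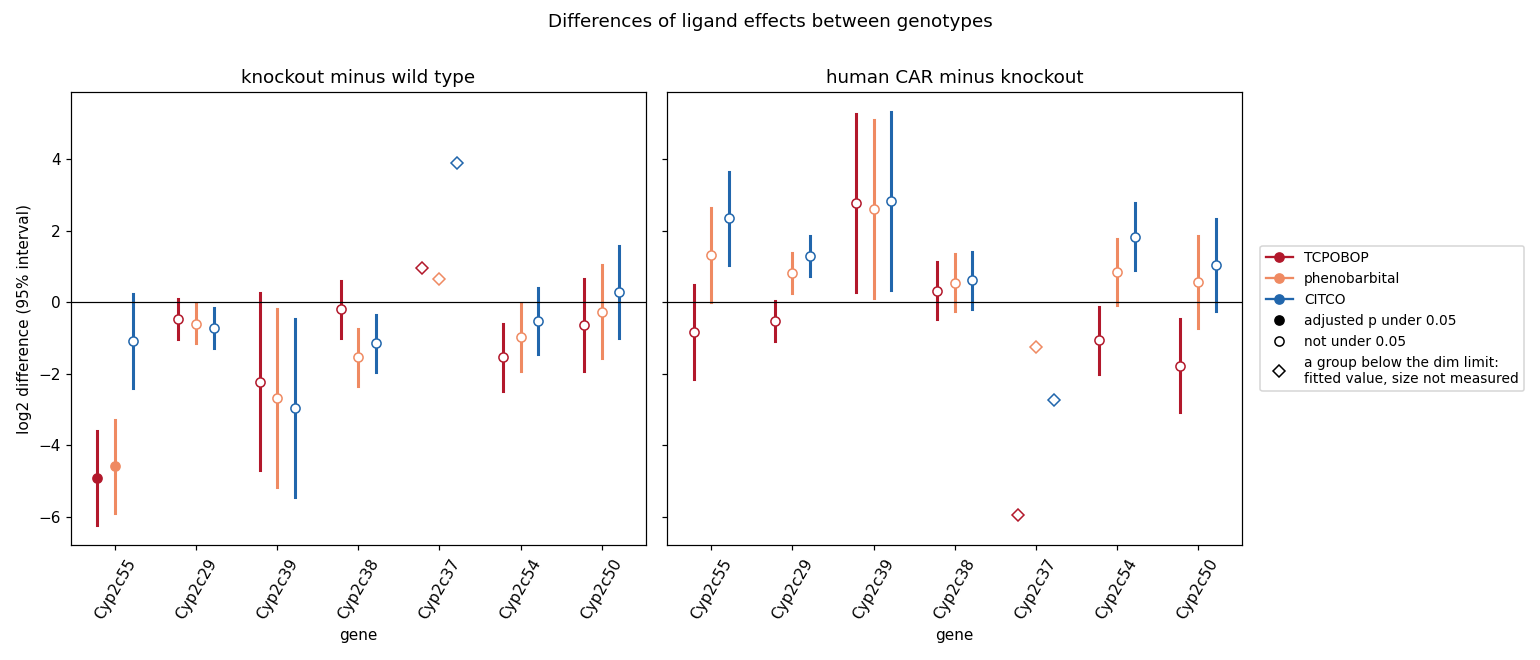
Differences of ligand effects between genotypes (log2, y axis) for each Cyp2c gene (x axis), knockout minus wild type on the left and human CAR minus knockout on the right, with 95% intervals and filled points where the adjusted p was under 0.05; diamonds rest on a group below the dim limit, and their size is not measured. Cyp2c55 is the filled gene, at -4.91 for TCPOBOP and -4.59 for phenobarbital in knockout minus wild type.

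Over the 12 groups the members fell into different orders of level. Cyp2c29 was highest in wild type on TCPOBOP and lowest in knockout on corn oil, and the 4 knockout groups took the last 4 places. Of its 11 pairs of neighbours in that order, 3 overlapped between mice, among them human CAR on CITCO with wild type on phenobarbital. Cyp2c55 was highest in wild type on TCPOBOP, then in wild type on phenobarbital and in human CAR mice on CITCO, and 3 of its 11 neighbouring pairs overlapped. Cyp2c50 and Cyp2c54 were highest in wild type on TCPOBOP or phenobarbital, which overlapped each other, and 8 and 7 of their neighbouring pairs overlapped. Human CAR mice on TCPOBOP ranked below their corn oil group for both and lay among the knockout groups or below them. For Cyp2c37 7 neighbouring pairs overlapped, and its last 2 groups, both below the dim limit, have no order. For Cyp2c38 and Cyp2c39 knockout on corn oil was highest without overlap with the next group, and 10 and 9 of the neighbouring pairs overlapped, so most of their order lay within the spread between mice.

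The group means of Cyp2c50 and Cyp2c54 correlated at r = 0.987 over the 12 groups, those of Cyp2c54 and Cyp2c55 at 0.928, and those of Cyp2c37 and Cyp2c50 at 0.899. Cyp2c37 and Cyp2c39 correlated at -0.73. Cyp2c29 correlated at 0.86 with Cyp2c50, and at -0.41 and -0.56 with Cyp2c38 and Cyp2c39, the members whose printed windows were most like its own. For Cyp2c37 2 of the 12 group means are below the dim limit. These values describe 12 groups that share genotypes and treatments. The probe sequences were not used here, and hybridisation of one member's RNA to the probes of another was not tested, so closely related members such as Cyp2c37, Cyp2c50 and Cyp2c54 may not be measured separately.

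Mice of 1 group differed more for these genes than for most. The pooled SD within groups was 0.199 for Cyp2c29, 0.298 for Cyp2c38, 0.354 for Cyp2c54, 0.496 for Cyp2c50, 0.504 for Cyp2c55, 0.964 for Cyp2c39 and 1.03 for Cyp2c37, against a median of 0.143 over all genes tested. The 2 mice were more than 1 unit apart in 6 of 12 groups for Cyp2c39 and in 3 for Cyp2c37, and the widest gaps were 3.78 for Cyp2c37, in wild type on CITCO, and 2.64 for Cyp2c39, in human CAR mice on corn oil. Cyp2c38 and Cyp2c39 were higher in the same mouse in 12 of 12 groups. In the 10 groups where Cyp2c37 was not below the dim limit in both mice, Cyp2c37 and Cyp2c50 were higher in the same mouse in 9, whereas Cyp2c37 and Cyp2c39 were higher in different mice in 7. These are counts over pairs of mice chosen after the values were seen, and no test was made.

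**Figure D5:**
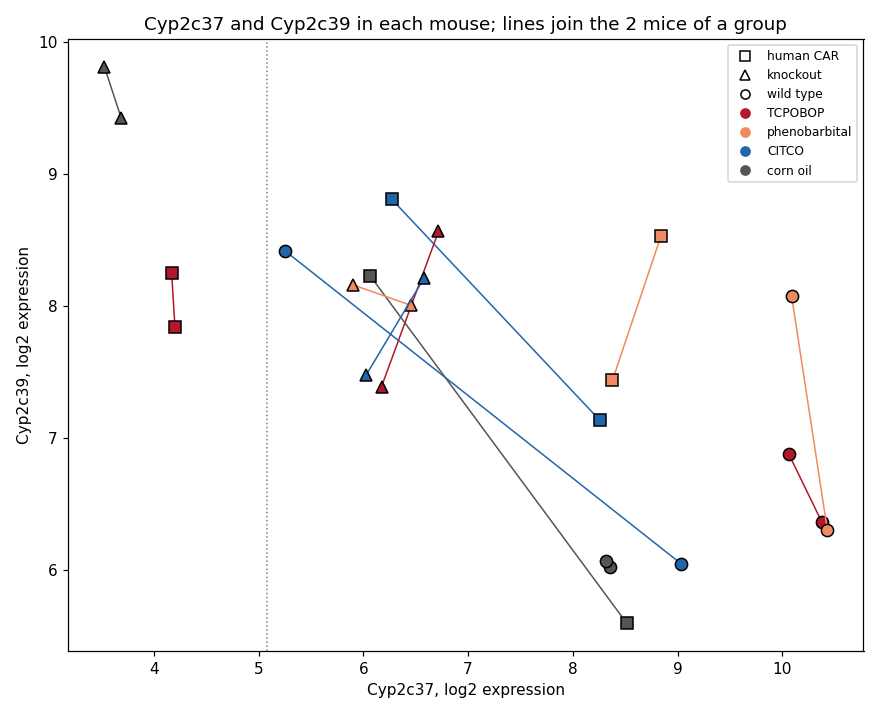
Cyp2c39 (log2 expression, y axis) against Cyp2c37 (log2 expression, x axis) in each of the 24 mice, with shape for genotype, colour for treatment lines joining the 2 mice of a group and a dotted line at the highest dim limit. In 7 of the 10 groups not wholly below the limit the mouse with more Cyp2c37 had less Cyp2c39, with the longest line in wild type on CITCO.

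Of the 9 other Cyp2c symbols listed, 4 were on the array and 3 were tested, Cyp2c65 being dim on all arrays (2.98 to 4.38). Cyp2c44, among the 9, was not among the protein-coding Cyp2c genes of the gene table. Cyp2c23, an arachidonic acid epoxygenase at the edge of the family, had 9.27 and 8.81 on TCPOBOP, against 10.78 and 10.11 on corn oil in wild type. Both TCPOBOP mice were lower than every other mouse of the study. Cyp2c23 fell by 1.40 on TCPOBOP (adjusted p = 0.000472), opposite in direction to Cyp2c29, Cyp2c54 and Cyp2c55 in the same livers. Its TCPOBOP effect in knockout was 1.38 above that in wild type (adjusted p = 0.0196). Cyp2c68 and Cyp2c70, which lie within the cluster, passed in 0 of 21 comparisons and lay between 9.99 and 11.17 and between 10.89 and 11.90 on all arrays.

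Genes that serve these enzymes were counted in the same comparisons. Of 11 tested electron donors and haem synthesis genes, 2 rose and 1 fell on TCPOBOP in wild type, and 1 rose on phenobarbital. Of all genes 3.34% rose and 2.8% fell on TCPOBOP there, and 0.895% rose and 0.578% fell on phenobarbital. Cytochrome b5 (Cyb5a), which passes electrons to P450s, rose by 0.91 on TCPOBOP (adjusted p = 3.04e-05) and by 0.79 on phenobarbital (adjusted p = 0.000449), and Pgrmc1, a haem-binding partner of P450s, rose by 0.48 on TCPOBOP. Uros, an enzyme of haem synthesis, fell by 0.65. The median over these 11 genes was 0.05 on TCPOBOP, against 0.01 over all genes.

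Of 5 tested genes of the Cyp2j epoxygenases and the epoxide hydrolases, 1 rose and 1 fell on TCPOBOP in wild type, where 3.34% of all genes rose and 2.8% fell, and 1 rose on phenobarbital. Ephx1, the microsomal epoxide hydrolase, rose by 1.07 on TCPOBOP (adjusted p = 0.000686) and by 1.08 on phenobarbital (adjusted p = 0.0029). Ephx2, the soluble hydrolase that removes fatty acid epoxides, fell by 0.87 on TCPOBOP (adjusted p = 0.00467), and its TCPOBOP effect in knockout was 1.32 above that in wild type (adjusted p = 0.00625). Of 12 receptors and liver transcription factors known to act on P450 genes, 0 rose and 1 fell on each of TCPOBOP and phenobarbital in wild type, where 2.8% and 0.578% of all genes fell. These were Cebpa, which fell by 0.55 on TCPOBOP (adjusted p = 0.0334), and Rxra, the partner of CAR, which fell by 0.86 on phenobarbital (adjusted p = 0.00583). In knockout and human CAR mice 0 of the genes of these 3 lists passed in any ligand comparison.

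Each member was set beside the genes whose 12 group means correlated best with its own. For Cyp2c55 these were Ugt2b34, a glucuronosyltransferase gene (r = 0.970), 4931406C07Rik (0.965) and Gstt3, a glutathione transferase gene (0.963). For Cyp2c29 they were Srp14 (0.910), Elovl3 (0.876) and Ttc28 (0.876), for Cyp2c37 Entpd6 (0.905), and for Cyp2c38 Fam174b (0.915). Hemk1 was nearest to Cyp2c39 (0.892), Stk25 to Cyp2c50 (0.908) and Pla2g12a to Cyp2c54 (0.890).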

How the data were processed

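The deposited log2 values, of 22690 probe sets in each of 24 livers, had been computed by the authors using RMA under R 2.15.0, per the submitters' processing notes. No further normalisation was applied, since array medians ran from 5.41 to 5.51. The members and gene lists were chosen with earlier results of these data known. Probe sets were named from the supplied platform annotation. After 64 control probe sets, 20380 had 1 symbol, 691 several and 1555 were not listed, and 20351 matched the GRCm38.p6 gene table by gene ID. No probe set with several genes named a Cyp2c gene. A gene was represented by its brightest probe set, and tested where this lay above the 40th percentile on at least 2 arrays.

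Group means were fitted to the 24 arrays together with limma 3.58.1 (R 4.3.3), leaving 12 residual degrees of freedom. There were 21 comparisons, each adjusted by the Benjamini-Hochberg method over 9167 genes, and an adjusted p under 0.05 counted as passing. The text gives all 7 members' values in every group and most of their differences, singly or as ranges, Nr1i3 and Cyp2b10 once, passing genes of fixed lists, and the genes most alike. On simulated arrays with 200 changed genes in 20 runs, TCPOBOP with corn oil in wild type recovered 90.1% of the 2-fold and 98.2% of the 4-fold changes, with 4.56% of calls false. The TCPOBOP effect in knockout minus wild type recovered 71.6% and 95%, with 4.23% false. Changed genes were drawn at random with normal noise, and the other comparisons were not simulated. The members had pooled SDs of 0.199 to 1.03, against a median of 0.143, so these rates do not carry over to them. Over 276 pairs of arrays at most 0.0485% of values were equal, so none was a copy. Hybridisation batches were not stated in the labels. Alternatives were cyclic loess, other dim filters, every probe set, a replicate block, fewer arrays and leaving out each array. Upstream windows were aligned with Biopython 1.88, and figures drawn with matplotlib 3.10.9.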

Additional observations from a re-analysis of the deposited data

Results flagged for a closer look

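Cyp2c55 was singled out because the test of a difference of effects between groups passed in 4 comparisons, while it passed for no other member. Its TCPOBOP effect in knockout minus that in wild type was -4.91, and its phenobarbital effect in knockout minus that in wild type was -4.59. Its phenobarbital effect in human CAR mice minus that in wild type was -3.27. Its CITCO effect in human CAR mice minus the TCPOBOP effect in wild type was -2.91, with different compounds and doses on the sides of that difference. In the comparisons with human CAR mice the promoter of the receptor differed as well. All 4 comparisons used the corn oil mice of wild type and so are not independent of each other.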

How the results depend on the processing

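Of the 147 differences of the members, 22 passed. Under cyclic loess and with every probe set tested, each of the 147 kept its side of the threshold, and no passing difference changed direction under any setting. With no filter on dim probe sets the Cyp2c55 phenobarbital effect in human CAR minus wild type no longer passed, leaving 0 members in that comparison in place of 1. Of all genes 0.0807% passed there. Other limma fits used only the arrays of the groups compared, so each estimated the spread from few mice. In wild type 5 members then passed for TCPOBOP (7.7% of all genes) and 5 for phenobarbital (3.26%). In knockout 2 passed for TCPOBOP (0.829%), Cyp2c37 and Cyp2c50, and 1 for CITCO (0.513%), while Cyp2c29 no longer passed for TCPOBOP (adjusted p = 0.107). In human CAR mice 0 passed for phenobarbital (0%) and 2 for CITCO (0.0436%), where Cyp2c54 was lost (adjusted p = 0.632). For knockout minus wild type on corn oil 6 passed (0.513%), Cyp2c39 and Cyp2c55 among them. The TCPOBOP effect in knockout minus wild type gave 3 (4.42%), and the CITCO effect in human CAR minus knockout gave 1 (0.0327%). Another setting, chosen after seeing the data, left out the 2 arrays that stood apart, so that 2 phenobarbital groups held 1 mouse. Cyp2c54 then no longer passed for phenobarbital in human CAR mice (1.78). Cyp2c55 no longer passed for the phenobarbital effect in human CAR minus wild type (-3.03), and Cyp2c50 passed for TCPOBOP in wild type (1.42). The cause of these shifts was not tested. Leaving out 1 array at a time left a lone mouse in a group, which was taken to vary like the other groups. No call of a member changed for TCPOBOP in wild type, or for the TCPOBOP and phenobarbital effects in knockout minus wild type. In most of the other comparisons with a passing member, a call was lost when some array was left out. Calls were gained in some comparisons. The number of all genes passing moved with the array left out too, so counts of members from these fits are not given.

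Deviations of same-numbered mice correlated between -0.449 and 0.424 over 66 pairs of groups, with a median of 0.03 and above 0.1 in 17. Replicate numbers were therefore not taken to pair the mice in the main fit. These correlations cannot exclude pairing between some of the groups. With the replicate number as a block, Cyp2c50 passed for TCPOBOP in wild type (1.42, adjusted p = 0.0467) and Cyp2c39 for knockout minus wild type (3.58, adjusted p = 0.0479), while Cyp2c54 no longer passed for CITCO in human CAR mice (1.80, adjusted p = 0.0512). The block changed no other call. Precision is limited by 2 mice per group, values of Cyp2c37 below the dim limit have no order, and human CAR itself was not measured.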
